A study of Mus musculus with 6 samples.

Results

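The genes described here encode the proteins of the mitochondrial ribosome, and were taken as every gene of the array whose symbol is Mrpl or Mrps followed by a digit. The rule found 76 genes on 132 probes, of 19057 genes on 34885 probes that carry 1 gene symbol in the platform annotation. Of these 76 genes, 48 have a large subunit symbol (Mrpl) and 28 a small subunit symbol (Mrps). A probe was above background on at least 3 arrays for 73 of them (46 large, 27 small), and 69 were above background on all 6 arrays. The probes of Mrpl19, Mrpl32 and Mrps14 were above background on 0 arrays, so these genes have no test. Mrpl41 and Mrps36 were not analysed here, since no probe carries either symbol alone.

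RNA was measured on Illumina bead arrays in 3 samples of mouse embryonic stem (ES) cells that received a short hairpin RNA against Ep400 (shEp400) and in 3 control samples. Ep400 is the ATPase of a chromatin remodelling complex that contains the acetyltransferase Tip60. Per the labels' protocols, all samples were grown on mitomycin C-treated embryonic fibroblasts as feeder cells, in medium with 15% serum and LIF. All were electroporated with the same hairpin vector, and puromycin was applied for 48 h, beginning 24 h after transfection. The samples are therefore transient, drug-selected populations that can hold feeder RNA. The labels do not record whether the 3 samples of a group were independent cultures, so the p-values below measure only their spread, which may be technical.

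Mitochondria carry their own ribosomes, which translate the few proteins encoded by mitochondrial DNA. All of these proteins are subunits of the oxidative phosphorylation complexes. The ribosomal RNAs come from mitochondrial DNA, whereas every ribosomal protein is encoded in the nucleus, made in the cytoplasm and imported. The small subunit binds the messenger RNA and reads the codons, and the large subunit joins amino acids and releases the chain through an exit tunnel facing the inner membrane. Many of the proteins have bacterial counterparts, and others are found only in mitochondria.

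The promoters of this gene family are known in mammals for sites of the factors NRF1, GABP (an ETS factor) and YY1. The 150 bases before the start are shown for a strongly lowered gene (Mrpl35), for 2 lowered genes that hold a searched motif there (Mrpl39, Mrpl58) and for the 1 raised gene (Mrps6). They are RefSeq sequence of build GRCm38.p6, 5' to 3' on the gene's strand. Mrpl35 lies at chr6:71823785-71823934 (minus strand), Mrpl39 at chr16:84735245-84735394 (minus strand), Mrpl58 at chr11:115403602-115403751 (plus strand) and Mrps6 at chr16:92058186-92058335 (plus strand). Capitals mark the palindromic core of the NRF1 site in Mrpl39 and the ETS core CCGGAAG in Mrpl58.
Mrpl35: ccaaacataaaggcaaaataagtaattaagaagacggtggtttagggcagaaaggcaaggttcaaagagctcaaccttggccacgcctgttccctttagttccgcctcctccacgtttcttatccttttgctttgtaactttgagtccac
Mrpl39: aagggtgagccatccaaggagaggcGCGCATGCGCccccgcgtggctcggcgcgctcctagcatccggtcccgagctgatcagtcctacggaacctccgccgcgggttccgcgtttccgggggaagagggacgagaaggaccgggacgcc
Mrpl58: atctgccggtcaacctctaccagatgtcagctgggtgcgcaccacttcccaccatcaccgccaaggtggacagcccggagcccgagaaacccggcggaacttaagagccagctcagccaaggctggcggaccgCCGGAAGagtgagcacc
Mrps6: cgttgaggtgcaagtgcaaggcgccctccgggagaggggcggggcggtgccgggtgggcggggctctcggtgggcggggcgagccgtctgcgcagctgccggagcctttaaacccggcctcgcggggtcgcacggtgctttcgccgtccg

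Promoter windows from 250 bases before to 50 bases after the start were in the RefSeq table for 65 of the 73 tested genes. Each motif was searched on both strands. A gene counted as holding a motif if the window of any of its starts held it. Windows and promoters are thus counted by gene below. The ETS core CCGGAAG was in 26 of the 65 windows (40.0%, Wilson 95% interval 29.0 to 52.1%). It was in 20.4% of all tested genes with a promoter and 9.93% of all 27025 genes in the table. It was in 10 of the 24 windows of genes that were lower in shEp400 cells and in 16 of the 41 windows of the other members. The YY1 core AAGATGG was in 12 windows (18.5%), against 8.60% of tested genes and 7.28% of all promoters. Mrpl35 held the YY1 core after its start, and Mrps16 held the ETS core on each side of its start. The NRF1 core, in the letters capitalized in Mrpl39, was in 2 windows (3.08%), those of Mrpl39 and Mrpl9, against 2.23% of tested genes and 1.07% of all promoters. Only these exact letters were searched, so other forms of an NRF1 site were not counted, in members or in other genes. The E-box CACGTG was in 5 windows (7.69%), against 12.02% of tested genes and 8.09% of all promoters. The ETS and YY1 shares depended on the window, and over the 250 bases before the start alone they were 27.7% and 7.69%. In that shorter window the ETS core was in 15.9% of tested genes and 7.83% of all promoters. The YY1 core was in 5.24% and 5.18% of them. These matches describe letters in a window and are no evidence of binding.

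Of the 73 tested genes, 28 (38.4%) were lower and 1 (1.37%) was higher at an adjusted p of 0.05 (limma, Benjamini-Hochberg over all 9736 tested genes), and 44 did not pass. Over all tested genes, 23.1% were lower and 20.6% were higher, so the members' share of lower calls was above the background and their share of higher calls below it. The median log2 change of the 73 genes was -0.41, against -0.06 for all tested genes. Of the 73 changes, 66 were below 0, against 5306 of 9736 over all tested genes. The shEp400 and control values did not overlap for 42 lower and 3 higher members. Over all genes the groups did not overlap for 55.5%, or for 30.3% when only lower genes are counted. A fall of at least 1.5-fold was called for 24 members, against a background of 19.1% of all genes. Only Mrpl35 and Mrpl18 passed 2-fold.

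**Figure D1:**
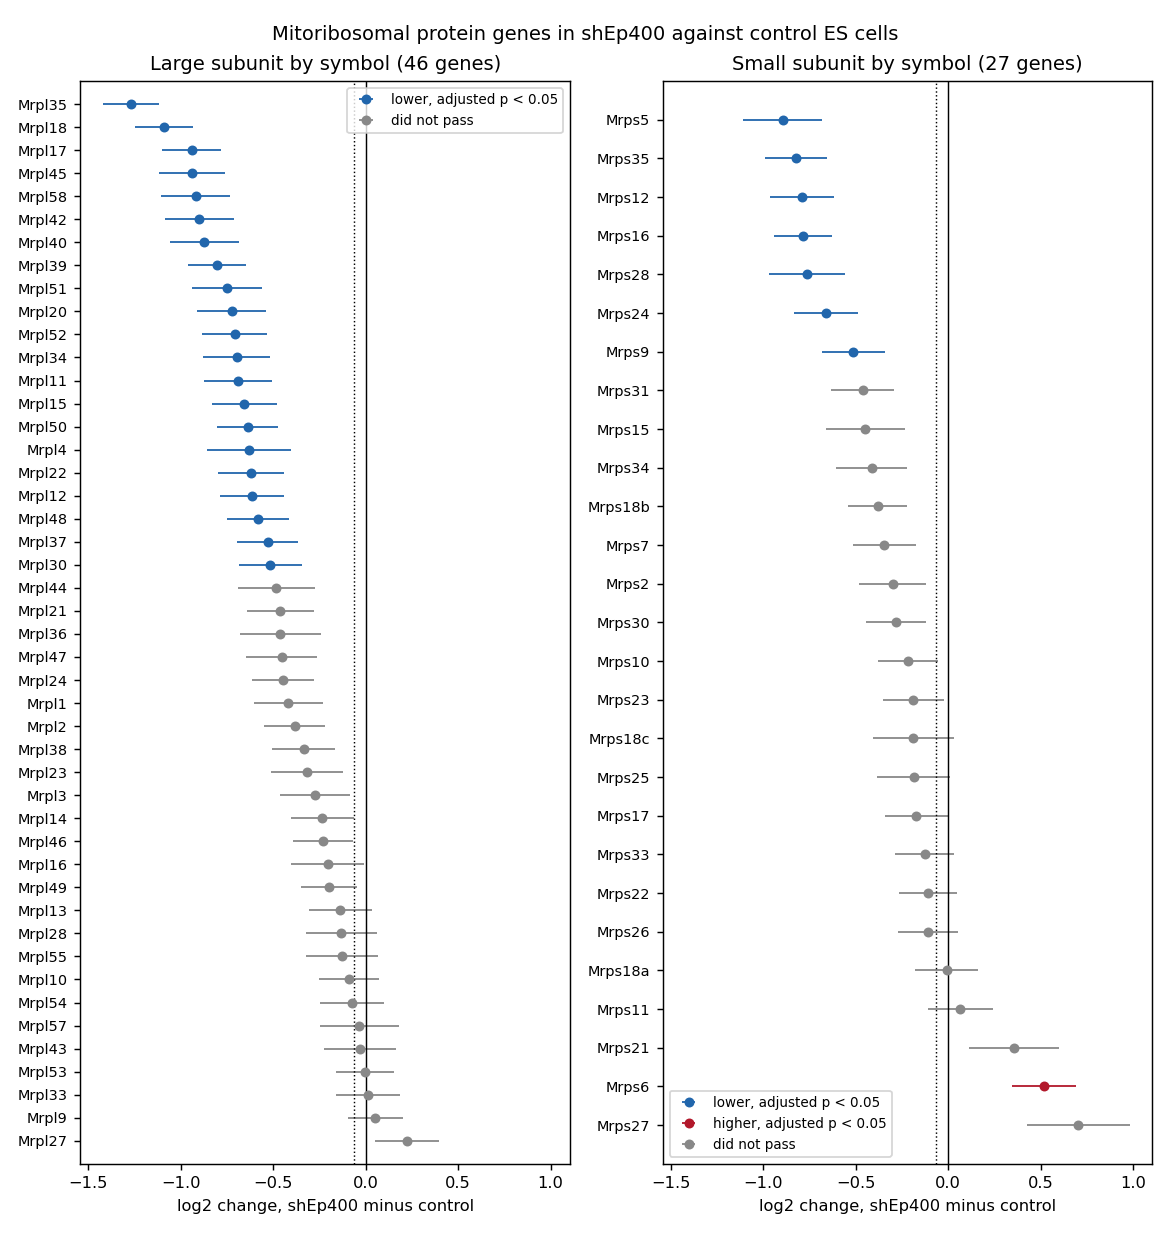
Log2 change (shEp400 minus control) of each tested gene of the large subunit (left, 46 genes) and small subunit (right, 27 genes), with bars of 1 standard error; blue marks lower and red higher genes by limma at an adjusted p of 0.05, and the dotted line is the median of all genes (-0.06). The points run from -1.27 for Mrpl35 to 0.70 for Mrps27, and Mrps6 is the 1 red point.

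Several facts of the arrays bear on these values. Ep400 itself had log2 signals of 8.88, 9.11 and 9.14 in shEp400 cells and 9.72, 9.58 and 9.56 in control cells, with no overlap. Its log2 change was -0.58 (SE 0.16, limma adjusted p = 0.0159), and it no longer passed with cyclic loess scaling (-0.42, adjusted p = 0.0631) or without control replicate 1 (-0.53, adjusted p = 0.0616). Of 28 tested feeder fibroblast markers, 25 were higher and 0 lower in shEp400 cells (median log2 change 2.10), with a summed signal of 62822 to 99452 in shEp400 samples and 15893 to 17019 in control samples. None of these markers was below background on all control arrays. Of 23 tested ES cell markers, 10 were lower and 2 higher, with a summed signal of 72360 to 104655 in shEp400 samples and 105840 to 108934 in control samples. The summed signal of the mitoribosomal genes was 87153 to 95097 in shEp400 samples and 113648 to 122196 in control samples. In such bulk RNA, fewer cells of a type and less RNA per cell cannot be told apart, and the part that the feeder and ES cell markers' shift had in the mitoribosomal values was not tested. The 6 arrays shared 1 slide with each group in adjacent positions, so slide position and group cannot be told apart.

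In the large subunit, 21 of 46 genes were lower (45.7%) and 0 higher, with a median log2 change of -0.46 and 43 changes below 0. Over all genes, 23.1% were lower and 20.6% higher. By origin, 11 of 27 tested proteins with a bacterial counterpart were lower (median -0.45), and so were 10 of 19 mitochondria-specific proteins (median -0.53). All 19 mitochondria-specific genes of this subunit had a change below 0, against 5306 of 9736 over all genes. For Mrpl43, Mrpl53, Mrpl54, Mrpl55 and Mrpl57 the sign was the opposite in 2 to 4 of the other settings. Of the 21 lower genes, 11 are described below, and the other 10 (Mrpl51, Mrpl20, Mrpl52, Mrpl34, Mrpl15, Mrpl50, Mrpl22, Mrpl48, Mrpl37 and Mrpl30) changed by -0.75 to -0.52 on the log2 scale.

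Mrpl35 is a large subunit protein with a bacterial counterpart. Its log2 signal was 6.34, 6.36 and 6.25 in shEp400 cells and 7.61, 7.53 and 7.62 in control cells. The groups lay more than 1 log2 unit apart, while the arrays within each group nearly coincided. The change was -1.27 (SE 0.15, limma adjusted p = 0.000212), or 2.41-fold lower. This was the largest fall of any member in this fit, but it was -0.72 without background correction and -0.73 in the authors' processed values, where Mrpl18 fell most (-0.96 in both).

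Mrpl18 is the counterpart of the bacterial protein that holds the smallest ribosomal RNA. Its log2 signal was 8.88, 8.93 and 8.76 in shEp400 cells and 9.90, 9.87 and 10.06 in control cells. Every shEp400 value was below every control value, with a change of -1.09 (SE 0.16, limma adjusted p = 0.00058), or 2.13-fold lower.

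The proteins around the exit tunnel include Mrpl17, Mrpl39 and Mrpl45. Of 9 tested tunnel genes, 5 were lower (Mrpl4, Mrpl17, Mrpl22, Mrpl39 and Mrpl45), with a median log2 change of -0.62, against 23.1% lower over all genes. Mrpl45 entered the test through its control arrays alone, and the calls for Mrpl4 and Mrpl22 were lost in 7 and 4 of the 15 other settings. Mrpl17 had log2 signals of 11.22, 11.05 and 11.17 in shEp400 cells and 11.97, 12.20 and 12.09 in control cells. Its groups stood clearly apart, with a change of -0.94 (SE 0.16, limma adjusted p = 0.00129), or 1.92-fold lower. Mrpl45, which in human mitochondria anchors the ribosome to the inner membrane, had log2 signals of 4.42, 4.79 and 4.43 in shEp400 cells and 5.32, 5.51 and 5.64 in control cells. This dim probe was above background on all 3 control arrays but on 0 shEp400 arrays, so it was at least 1.37-fold lower, a bound taken from the lowest signal above background (limma adjusted p = 0.00245). Without background correction its change was -0.30. Mrpl39 was also dim, at 5.03, 5.13 and 5.16 in shEp400 cells, where 2 arrays were above background, and 6.01, 5.93 and 5.79 in control cells. These groups were separate too, with a change of -0.80 (SE 0.16, limma adjusted p = 0.0028), or 1.74-fold lower. The size is uncertain, since the change was -0.27 without background correction and -0.37 with normexp.

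Mrpl58, Mrpl42 and Mrpl40 are further large subunit genes with strong falls. Mrpl58 is a peptidyl-tRNA hydrolase built into the ribosome that frees chains from stalled ribosomes. Its log2 signal was 7.33, 7.77 and 7.28 in shEp400 cells and 8.24, 8.48 and 8.42 in control cells, without overlap, and the change was -0.92 (SE 0.18, limma adjusted p = 0.00316), or 1.89-fold lower. The mitochondria-specific Mrpl42 had 10.64, 10.38 and 10.20 in shEp400 cells and 11.08, 11.39 and 11.46 in control cells. Its shEp400 values were more spread than those of Mrpl35 but stayed below all controls, with a change of -0.90 (SE 0.19, limma adjusted p = 0.00364), or 1.87-fold lower. Mrpl40, whose human counterpart lies in the DiGeorge syndrome region, had 10.56, 10.52 and 10.07 in shEp400 cells and 11.14, 11.21 and 11.42 in control cells. shEp400 replicate 3 was the lowest, the groups did not overlap, and the change was -0.87 (SE 0.19, limma adjusted p = 0.00441), or 1.83-fold lower.

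The stalk of the large subunit recruits the translation factors. Of its 5 tested genes, 2 (Mrpl11 and Mrpl12) were lower at the brightest probes (40%). This compares with 45.7% of the large subunit and 23.1% of all genes. The median log2 change of the 5 was -0.09, and differences between the 5 were not tested. Mrpl11, at the stalk base, had log2 signals of 9.41, 9.46 and 8.95 in shEp400 cells and 9.93, 9.98 and 9.99 in control cells. The controls were tight and the groups separate, with a change of -0.69 (SE 0.18, limma adjusted p = 0.0123), or 1.61-fold lower. Mrpl12, the stalk protein that also binds the mitochondrial RNA polymerase in human cells, had 11.02, 11.07 and 10.65 in shEp400 cells and 11.55, 11.58 and 11.45 in control cells. Its groups did not overlap either, with a change of -0.61 (SE 0.17, limma adjusted p = 0.0173), or 1.53-fold lower, though the call was lost without control replicate 1 (adjusted p = 0.0548) or 2 (adjusted p = 0.0569). Mrpl10, which ties the stalk to the subunit, had 11.58, 11.77 and 11.55 in shEp400 cells and 11.63, 11.84 and 11.71 in control cells. At this brightest probe the values overlapped, and the change of -0.09 did not pass (limma adjusted p = 0.676). A second Mrpl10 probe changed by -0.38 without overlap between the groups, and did not pass either (limma adjusted p = 0.0841). Mrpl43, Mrpl33 and Mrpl53 had some of the smallest changes of any member, at -0.03, 0.01 and -0.00 on the log2 scale. Mrpl44, an RNase III-like protein whose human gene is mutated in a cardiomyopathy, had 9.39, 8.91 and 8.71 in shEp400 cells and 9.60, 9.30 and 9.55 in control cells. Its groups overlapped, and the change of -0.48 did not pass (limma adjusted p = 0.0825), although it was called lower in 6 of the 15 other settings.

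**Figure D2:**
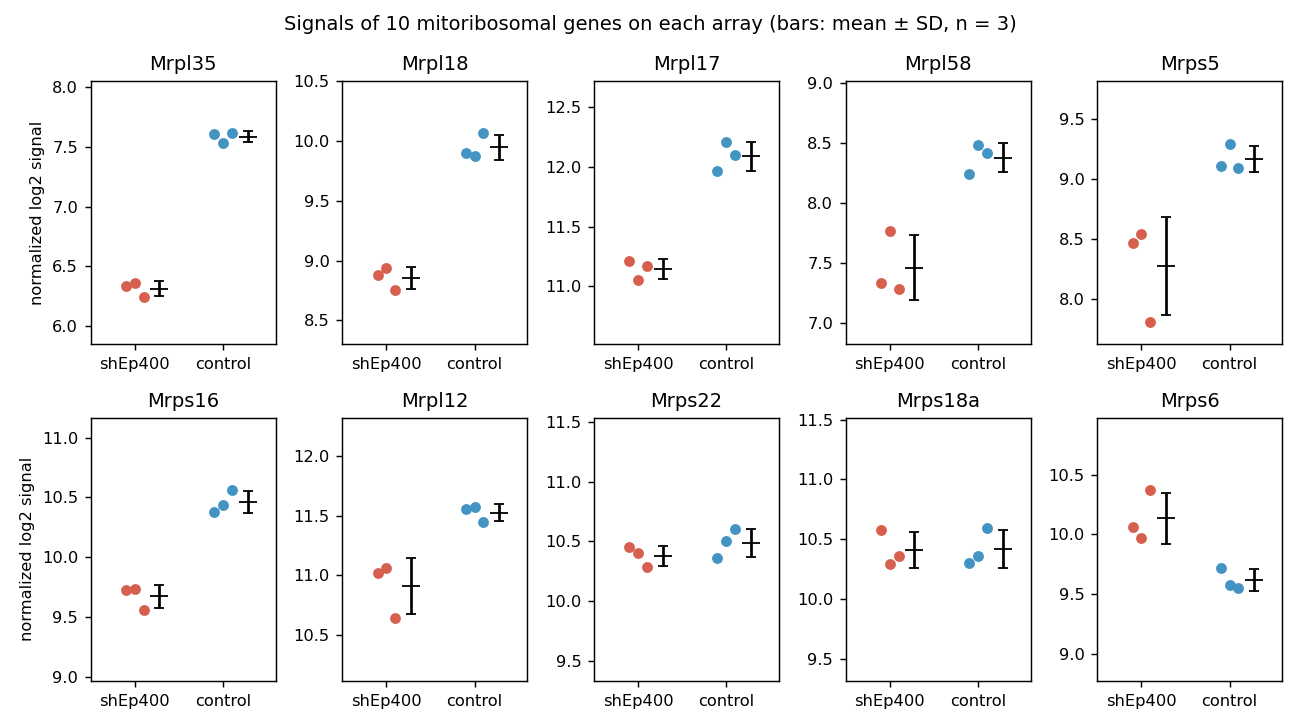
Normalized log2 signal of named members on each array, shEp400 left of control in each panel, with 1 point per array and bars for each group's mean ± SD (n = 3). For Mrpl35, Mrpl18 and Mrpl17 every shEp400 point lies below every control point, whereas for Mrps6 every shEp400 point lies above.

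In the small subunit, 7 of 27 genes were lower (25.9%) and 1 was higher (3.70%), with a median log2 change of -0.28. Its changes were below 0 for 23 genes, against 5306 of 9736 over all genes. In this fit its share of lower calls was close to the 23.1% of all genes, but the gap depended on the setting. The share was 37% against 23.3% of all genes without background correction, and 44.4% against 28.3% with upper-quartile scaling. With cyclic loess it was 22.2% against 17.1%. Of 17 tested genes with a bacterial counterpart, 6 were lower and 1 higher (median -0.35), and of 10 mitochondria-specific genes 1 was lower (median -0.19). Besides the genes described below, Mrps28, Mrps24 and Mrps9 were lower, with log2 changes of -0.77, -0.66 and -0.51.

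Mrps5, the counterpart of a bacterial protein near the messenger RNA entry, fell most. Its log2 signal was 8.47, 8.54 and 7.80 in shEp400 cells and 9.11, 9.29 and 9.09 in control cells. shEp400 replicate 3 lay well below the other shEp400 arrays, all 3 were below the controls, and the change was -0.90 (SE 0.22, limma adjusted p = 0.00791), or 1.86-fold lower. Mrps35 was the lowered mitochondria-specific gene, with 9.51, 9.32 and 9.18 in shEp400 cells and 10.16, 10.27 and 10.04 in control cells. Its groups were separate, with a change of -0.82 (SE 0.17, limma adjusted p = 0.00336), or 1.77-fold lower.

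Mrps12 is the counterpart of a bacterial protein of the decoding centre. Its brightest probe had log2 signals of 10.45, 10.88 and 10.84 in shEp400 cells and 11.45, 11.49 and 11.60 in control cells. The groups did not overlap and the change was -0.79 (SE 0.18, limma adjusted p = 0.0052), or 1.73-fold lower. A second probe changed by only -0.22, and with the mean of both probes the call was lost (-0.50, adjusted p = 0.0592). Mrps16, whose human gene is mutated in a fatal infant disease of oxidative phosphorylation, had 9.72, 9.74 and 9.56 in shEp400 cells and 10.38, 10.43 and 10.56 in control cells. It too had no overlap, with a change of -0.79 (SE 0.16, limma adjusted p = 0.00316), or 1.72-fold lower. Of 11 tested members chosen for a human disease gene, a list that may not be complete, 3 were lower (Mrpl12, Mrps16 and Mrps28). The median log2 change of the 11 was -0.35. For this list the share of lower calls (27.3%) was near the 23.1% of all genes. Mrps22, another of the 11, had 10.45, 10.40 and 10.29 in shEp400 cells and 10.36, 10.50 and 10.60 in control cells. Its values overlapped and the change of -0.11 did not pass (limma adjusted p = 0.604).

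Mrps6 was the 1 member called higher. Its log2 signal was 10.06, 9.97 and 10.37 in shEp400 cells and 9.72, 9.57 and 9.55 in control cells. All shEp400 arrays were above all controls, with a change of 0.52 (SE 0.17, limma adjusted p = 0.0338), or 1.43-fold higher. The call was lost with scaling to the upper quartile (0.36, adjusted p = 0.11), without any 1 of the 3 control replicates and without shEp400 replicate 3. Mrps27, a pentatricopeptide repeat protein named here after its values were seen, had the largest positive change (0.70) but did not pass (SE 0.28, limma adjusted p = 0.0658). Its values were 5.83, 5.80 and 6.24 in shEp400 cells and 5.61, 4.56 and 5.59 in control cells, where 2 arrays were above background and control replicate 2 was far below the others.

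Mrps18a, Mrps18b and Mrps18c are 3 relatives of 1 bacterial protein, and the human Mrps18a and Mrps30 proteins sit in the large subunit despite their symbols. None of these 4 genes passed at its brightest probe. Mrps18a had log2 signals of 10.58, 10.29 and 10.36 in shEp400 cells and 10.30, 10.36 and 10.60 in control cells, a full overlap with a change of -0.01 (limma adjusted p = 0.975). Mrps18b had 11.17, 11.14 and 11.40 in shEp400 cells and 11.55, 11.64 and 11.65 in control cells. Its groups were separate, yet the change of -0.38 did not pass (SE 0.16, limma adjusted p = 0.0792). Its other 2 tested probes were called lower, with changes of -0.64 and -0.48, and the gene was called lower in 7 of the 15 other settings. Mrps18c changed by -0.19 (limma adjusted p = 0.513) and Mrps30 by -0.28 (limma adjusted p = 0.183). The subunit counts and medians in this text follow the symbols. With Mrps18a and Mrps30 moved to the large subunit, 21 of 48 large subunit genes were lower (43.8%, median -0.46). In the small subunit 7 of 25 were then lower (28%, median -0.30).

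The subunits were next compared array by array, each array set against the control mean and each control array against the mean of the other 2 controls. Only differences of the same probe between arrays were used, since brightness cannot be compared between probes. The median log2 difference of the large subunit genes was -0.33, -0.48 and -0.58 on the shEp400 arrays and -0.07, 0.02 and 0.05 on the control arrays. That of the small subunit genes was -0.35, -0.28 and -0.21 on the shEp400 arrays and -0.10, -0.01 and 0.13 on the control arrays. Both subunits were thus below the controls on each shEp400 array, the large subunit most on replicate 3 and the small subunit least there.

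Large minus small was 0.02, -0.20 and -0.36 on the shEp400 arrays and 0.04, 0.04 and -0.08 on the control arrays. The first shEp400 array lay within the range of the controls, and the other 2 lay below it. On that first array the sign was not fixed, at -0.02 with upper-quartile scaling. The difference between the subunits' median log2 changes was -0.18. It was -0.07 without shEp400 replicate 3 and -0.32 without shEp400 replicate 1, so its size rested on single arrays. The ES cell markers' median difference was -0.23, -0.53 and -1.08 on the same 3 arrays, and that of the feeder markers was 1.69, 2.05 and 2.43. The part of these markers in the difference between subunits was not tested, and neither was the difference itself.

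**Figure D3:**
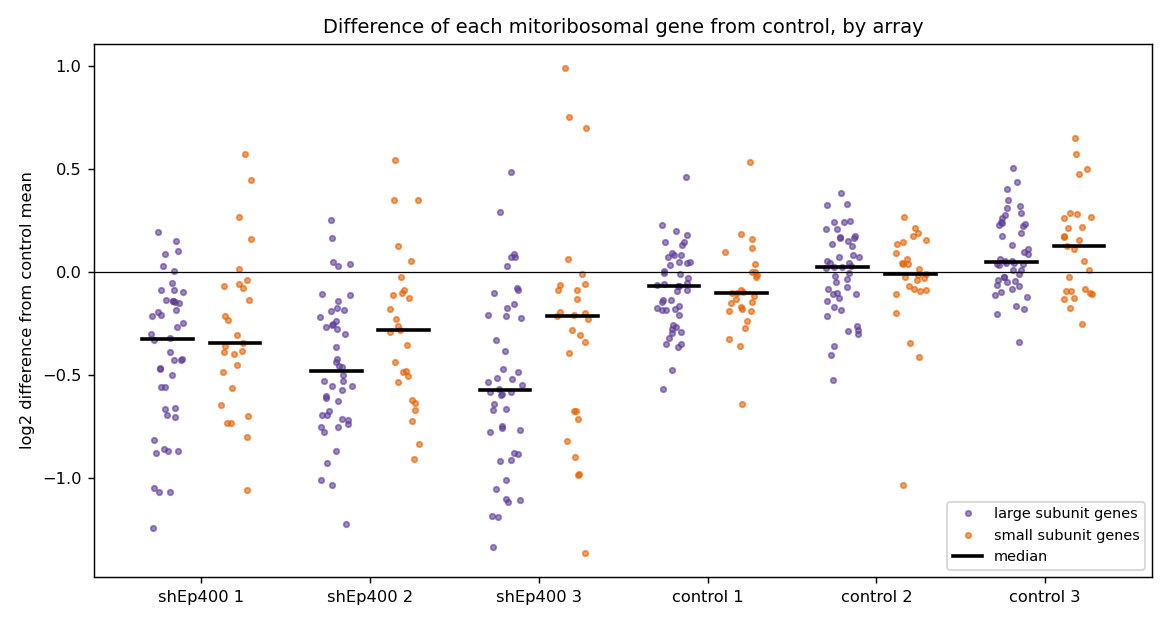
Log2 difference from control of the 46 large and 27 small subunit genes on each array, with 1 point per gene and a bar at each median, with the 3 shEp400 arrays left of the 3 control arrays, each control array set against the mean of the other 2. All shEp400 medians lie at or below -0.21, and the gap between subunits is 0.02 on the first shEp400 array and -0.36 on the third.

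Several members were measured by more than 1 probe, which gives a second reading under the same symbol. Whether such probes read the same transcripts was not examined. For 25 genes with 62 tested probes, 0 had probes called in opposite directions, and 23 had changes of 1 sign at all probes. At least 1 probe was called lower for 11 of the 25. No matching counts over all genes with several probes are at hand, so these counts have no background share. At probe level, 43 of the 110 tested probes were lower and 1 was higher, against 22.6% lower and 18.8% higher over all 14238 tested probes. The genes that follow in this paragraph were named after their values were seen. Mrpl15 had 7 tested probes, of which 6 were lower, and its brightest probe had log2 signals of 11.94, 11.64 and 11.45 in shEp400 cells and 12.33, 12.36 and 12.31 in control cells. At the 6 probes above background on all arrays the changes ran from -1.05 to -0.46, and the groups did not overlap at the 5 of them called lower. The seventh was above background on 0 shEp400 arrays and entered through the control arrays alone. Mrpl38, Mrpl47, Mrpl49, Mrps18b and Mrps31 were called lower at a dimmer probe only. For Mrpl49 the dimmer probe changed by -0.91 and the brightest by -0.20. For Mrpl47 the brightest changed by -0.45, and the called probe was above background on only 1 shEp400 array. The counts by gene thus depend on which probe stands for it.

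Genes that work with the mitochondrial ribosome were read from the same fit. Of 59 tested genes in the lists for assembly and ribosomal RNA modification, translation factors and mitochondrial tRNA synthetases, 29 (49.2%) were lower and 0 higher. The median log2 change of the 59 was -0.49. Over all genes, 23.1% were lower and 20.6% higher, which is the background for these lists and those below. In the assembly list 10 of 25 (40%) were lower and 0 higher (median -0.38). Tfb1m, which methylates the small subunit's ribosomal RNA, had log2 signals of 6.75, 6.36 and 5.98 in shEp400 cells and 7.83, 7.77 and 7.91 in control cells. All 3 shEp400 arrays were far below the controls, with a change of -1.48 (SE 0.21, limma adjusted p = 0.000489), or 2.78-fold lower. Without background correction the change was -0.87, with the call kept. Oxa1l, which inserts the new chains into the inner membrane, was 1.79-fold lower (limma adjusted p = 0.00348).

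Of 17 genes in the translation factor list, 10 (58.8%) were lower and 0 higher (median -0.62). The list also holds genes that are not such factors, among them Lrpprc, Ptcd2 and Rmnd1, which were lower. The initiation factor Mtif3 was 2.28-fold lower at its brightest probe (limma adjusted p = 0.00134) but did not pass with the mean of its probes (-0.46, adjusted p = 0.0519). Mtrf1, of the release factor family, was 1.95-fold lower (limma adjusted p = 0.00436), a log2 change of -0.96 that was -0.63 without background correction. Of 17 tested genes in the list of mitochondrial tRNA synthetases, 9 (52.9%) were lower and 0 higher (median -0.49). The lower ones included Cars2 (2.37-fold lower, limma adjusted p = 0.000695) and Vars2 (2.01-fold lower, limma adjusted p = 0.00256). The list as drawn up also holds Gatb, Gatc and Qrsl1, which are not synthetases, and Gars and Kars, which also serve the cytoplasm.

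Of 15 genes for mitochondrial DNA and its transcription, 6 (40%) were lower and 0 higher (median -0.52). Hsd17b10, a subunit of the mitochondrial RNase P, was 1.78-fold lower (limma adjusted p = 0.00555), and Elac2, which cuts the other end of the tRNAs, was 1.64-fold lower (limma adjusted p = 0.0107). Of 4 tested mitoribosomal proteins with other symbols, 2 were lower and 0 higher (median -0.48), the large subunit protein Gadd45gip1 (log2 change -0.57, limma adjusted p = 0.0493) and the small subunit protein Chchd1 (-0.52, limma adjusted p = 0.0277). The call for Gadd45gip1 was lost in 11 of 15 other settings and that for Chchd1 in 6.

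Of 11 tested regulators of nuclear genes for mitochondria, 3 were lower and 0 higher (median -0.20), a share of 27.3% against 23.1% of all genes. Ppargc1b, a coactivator of such genes, was above background on 3 control arrays and 0 shEp400 arrays, and was at least 2.46-fold lower (limma adjusted p = 0.000399). It entered the test through the control arrays alone, and its change was -1.61 in the fit but -0.57 without background correction. The related coactivator Pprc1 was 1.85-fold lower (limma adjusted p = 0.00246). The third, named after its values were seen, was Gabpa, the DNA-binding part of the ETS factor GABP, at 1.53-fold lower (limma adjusted p = 0.0336).

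The proteins of the cytoplasmic ribosome were read from the same fit. Of 54 tested genes with Rpl or Rps symbols, paralogs included, 8 (14.8%) were lower and 0 higher. Both shares were below those of all genes (23.1% and 20.6%). The median log2 change of the 54 was -0.04. That median was 0.12 with cyclic loess scaling and -0.39 with scaling to the upper quartile, so its sign was not fixed by these data. The difference between cytoplasmic and mitochondrial ribosomal genes was not tested.

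**Figure D4:**
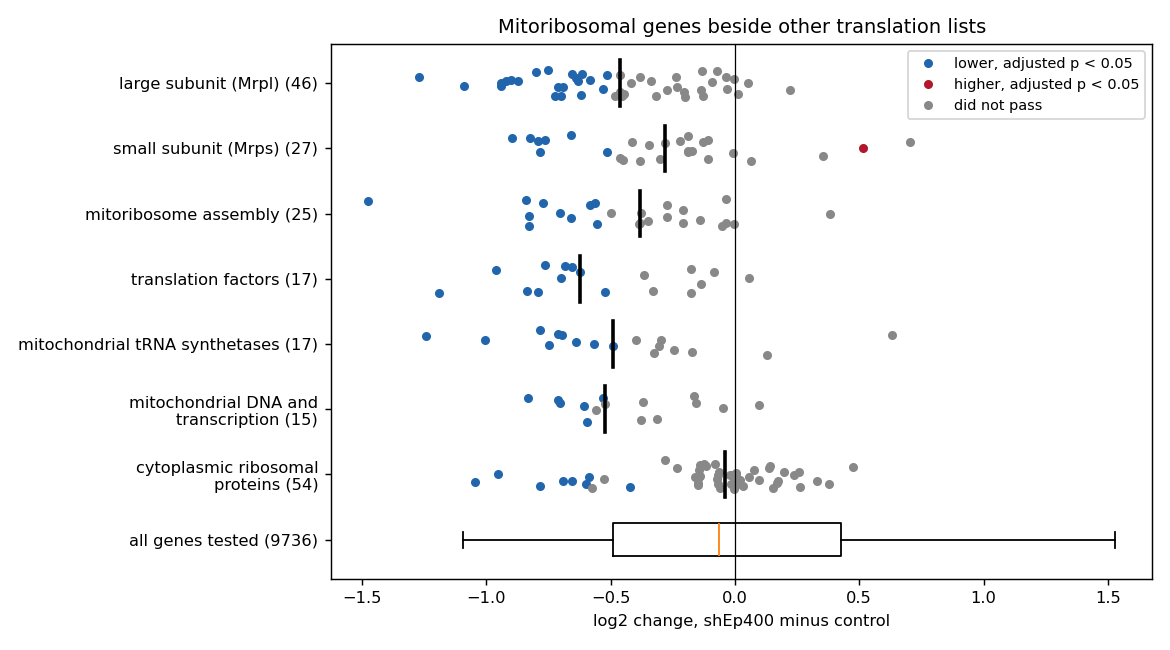
Log2 change (shEp400 minus control) of the genes of each list, with 1 point per gene (blue lower, red higher, grey did not pass) and a bar at the list's median; the box at the bottom spans the quartiles of all 9736 genes, with its line at their median (-0.06) and whiskers at the 5 and 95 percentiles. The large subunit (-0.46) and the 3 mitochondrial translation lists (-0.38 to -0.62) lie below the cytoplasmic ribosomal proteins (-0.04).

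The members differed in how firmly their calls held over 15 other settings of background, scaling, filter, probe choice and left-out arrays. Of the 28 genes called lower, 17 were called lower in every setting run for them, and 11 lost the call in at least 1 (Mrpl4, Mrpl12, Mrpl20, Mrpl22, Mrpl30, Mrpl37, Mrpl48, Mrps9, Mrps12, Mrps24 and Mrps28). All 12 genes with the largest falls except Mrps12 were among the 17. Over the 73 genes, 55 had a change below 0 in every setting run, and 45 were called lower in at least 1. No matching counts over all genes are at hand, so these counts across settings have no background share. With only genes above background on all 6 arrays, 29 of 69 were lower (42%) and 1 higher. In that setting 26.4% of all genes were lower and 20.1% higher.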

How the data were processed

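Expression in 3 shEp400 and 3 control samples was read from 1 Illumina bead array each. The deposited values are signal intensities with a detection p-value per probe, per the file headers, for 45281 probes. They were neither scaled between arrays nor background-subtracted, as their values showed. Per the submitters' processing notes the scans went through GenomeStudio; neither a version nor settings were found in these sources. The authors' processed matrix, linear intensities with a median of 114 on each array, was used as an alternative only.

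Log2 values were computed with neqc in limma 3.58.1 (R 4.3.3; offset 16, quantiles). Probes with 1 symbol and a detection p below 0.01 on 3 or more arrays entered the fit, with the brightest probe per gene (9736 genes). Groups were compared with lmFit and eBayes, two-sided, with Benjamini-Hochberg adjustment over all genes at 0.05. Precision is limited by the 6 arrays (4 residual degrees of freedom). Log2 changes are shEp400 minus control, and SE is the fit's standard error. The arrays had 15441 to 17337 probes above background. The script was tested on simulated data.

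Members and lists were chosen with earlier results of these data known. The text names the 12 called members with the largest fall and up to 12 with the largest rise whose groups do not overlap, the 4 with the smallest change, 13 members named by function (2 of them without a probe of their own), Ep400, and up to 2 genes per direction from each other mitochondrial list. Alternatives covered background, scaling, filter, probe choice, variance trend and left-out arrays.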

Additional observations from a re-analysis of the deposited data

How the results depend on the processing

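Every listed processing alternative was run, and 0 of the named genes' log2 changes turned their sign past the threshold. Counts, medians and subunit differences had no such threshold, and the medians of all genes and of the cytoplasmic ribosomal proteins changed sign. Members called lower numbered 43 (58.9%) with upper-quartile scaling and 22 (30.1%) with cyclic loess, against 28.3% and 17.1% of all genes. When probes stood for genes, 43 of 110 were lower, against 22.6% of all probes. Members called higher numbered 2 with cyclic loess and 0 with upper-quartile scaling, against 25% and 18.2% of all genes. Scaling moved all genes: their median log2 change was -0.06, but 0.05 with cyclic loess and -0.17 with upper-quartile scaling, and 47.2%, 59.3% and 39.1% of all calls were higher in these 3 settings. Relative to that median the members stood at -0.35, -0.32 and -0.43. The large subunit's median was -0.32 with cyclic loess and -0.66 with upper-quartile scaling, and the small subunit's -0.13 and -0.42. The mitochondrial translation lists' median was -0.36 with cyclic loess, -0.29 without background correction, -0.32 with normexp and -0.29 in the authors' matrix. The cytoplasmic ribosomal proteins' median was 0.12 with cyclic loess and -0.39 with upper-quartile scaling. Ep400 changed by -0.42 with cyclic loess. Over the 250 bases before the start alone, the ETS core was in 27.7% and the YY1 core in 7.69% of the members' promoters. The shares of tested genes in that window were 15.9% and 5.24%. The causes of these shifts were not tested.

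Leaving out 1 array at a time, 20 to 33 members were lower (27.4% to 45.2%), against 16.4% to 23.6% of all genes. Members called higher numbered 0 to 1 (0 without shEp400 replicate 3 or control replicate 2 or 3), against 16.2% to 21.3% of all genes. The large subunit's median ran from -0.56 to -0.38, the small subunit's from -0.33 to -0.24, and their difference from -0.32 to -0.07. Ep400 ran from -0.63 to -0.50 and did not pass without control replicate 1 (-0.53). No paired analysis was possible because the labels give the groups no shared replicate numbers. Dim probes such as those of Mrpl45 and Mrpl39 limit the size of their falls, which without background correction were -0.30 and -0.27.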
